A study of Mus musculus with 2 samples.

Results

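Leukemia inhibitory factor (LIF) reaches mouse embryonic stem cells (mESCs) through a short chain of proteins. The LIF receptor pairs with gp130, the shared subunit encoded by *Il6st*, and the kinase JAK1 on their inner tails phosphorylates STAT3, which enters the nucleus and turns on genes that hold cells in the naïve state. Among its known targets are *Socs3*, whose product shuts the receptor off again, the kinase genes *Pim1* and *Pim3*, and the homeobox gene *Gbx2*. The genes described here are these 8, *Lifr*, *Il6st*, *Jak1*, *Stat3*, *Socs3*, *Pim1*, *Pim3* and *Gbx2*, named by symbol as the LIF receptor and STAT3 pathway, out of 31053 genes in the count matrices. All 8 were found in both matrices.

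The study profiled single cells on the 10x Genomics platform, with 1 library of parental E14 mESCs (WT) and 1 library of mESCs in which CRISPR-Cas9 was used to knock out both *Smad1* and *Smad5* (S1/5 dKO). Both were grown without feeders on gelatin in SL, a medium with 15% FBS and 1000 U/ml LIF, so the ligand was supplied to every cell. SMAD1 and SMAD5 carry the BMP signal, which acts beside LIF in serum cultures through *Id* genes. With 1 library per genotype there are no replicates, so no test was made, a difference between cultures and a difference between genotypes cannot be told apart, and every interval below covers counting error alone. Levels are counts per 1000000 (CPM) of unique molecular identifiers (UMIs), over the UMIs of the kept cells. UMIs come from the 3′ end, 1 per captured molecule, so levels were not divided by gene length. They report mRNA, not the phosphorylation of STAT3.

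Cells are barcodes in which 1000 genes or more were detected and mitochondrial UMIs made up 5% or less: 2236 WT cells with a median of 38662 UMIs and 2910 cells labelled S1/5 dKO with a median of 34548.5 UMIs. The libraries shared 0 of these barcodes. No doublets were removed. The 135 WT cells and 140 cells labelled S1/5 dKO whose UMIs passed 2 times their library's median were left out in an alternative.

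The targeted genes came first. *Smad1* stood at 13.4 CPM in WT and 9.17 in the other library, so its log2 ratio was -0.55 (95% interval -0.67 to -0.43). *Smad5* stood at 6.05 and 9.09, a log2 ratio of 0.59 (0.44 to 0.74), and so was higher where it should be knocked out. UMIs from the 3′ end do not see a deletion elsewhere in a gene, and the labels do not say which S1/5 dKO line was sequenced, so the second library is called the library labelled S1/5 dKO throughout. The 3 BMP targets on the list were all lower in it: *Id1* fell from 323 to 161 CPM, *Id2* from 57.1 to 16.8 and *Id3* from 103 to 61.5.

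Both libraries carried mESC markers. All 8 mESC markers were detected, with a summed level of 7928 CPM in WT cells and 8152 in those labelled S1/5 dKO, *Dppa5a* being the most abundant. The 6 endoderm markers summed to 2.65 and 2.52 (most abundant *Gata6*), the 6 trophoblast markers to 1.92 and 1.41 (*Eomes*), and the 6 fibroblast markers to 0.802 and 1.05 (*Thy1*, with *Col3a1* and *Lum* at 0). The 12 markers of 2-cell-like cells, 11 of them in the matrices, summed to 3.65 and 11.2 (*Gm8300*).

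Every link of the LIF chain was transcribed in WT cells, and the targets stood above the transcripts of the signaling proteins. *Pim3* had 142 CPM in WT (95% interval 140.1 to 144.9), *Gbx2* 43.1 (41.8 to 44.4) and *Socs3* 41.5 (40.2 to 42.8). *Pim1* followed with 29.3 (28.2 to 30.4) and *Stat3* with 26.4 (25.4 to 27.5). The receptor and its kinase were lower, with *Lifr* at 20.7 (19.8 to 21.6), *Jak1* at 19.5 (18.6 to 20.4) and *Il6st* at 6.62 (6.11 to 7.15). Of the 7 neighbours in this order, the intervals overlapped for *Gbx2* and *Socs3* and for *Lifr* and *Jak1*. Against the 13654 genes that had 50 UMIs or more in all, *Pim3* lay at the 92.1st percentile of WT levels and *Il6st* at the 45.3rd, so gp130 was the scarcest transcript of the chain.

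The library labelled S1/5 dKO kept the same order, and there no neighbours had overlapping intervals, with *Pim3* at 161 CPM (158 to 163), *Gbx2* at 49.1 (47.8 to 50.5) and *Socs3* at 43.2 (42.0 to 44.5). *Pim1* stood at 38.5 (37.3 to 39.7) and *Stat3* at 27.3 (26.3 to 28.3). *Lifr* had 20.2 (19.4 to 21.1), *Jak1* 17.5 (16.7 to 18.3) and *Il6st* 6.65 (6.17 to 7.15). The plot of levels by library shows the pairs of points on a log axis: those of *Lifr*, *Il6st*, *Stat3* and *Socs3* lie level, and *Pim1* has the widest gap.

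**Figure D1:**
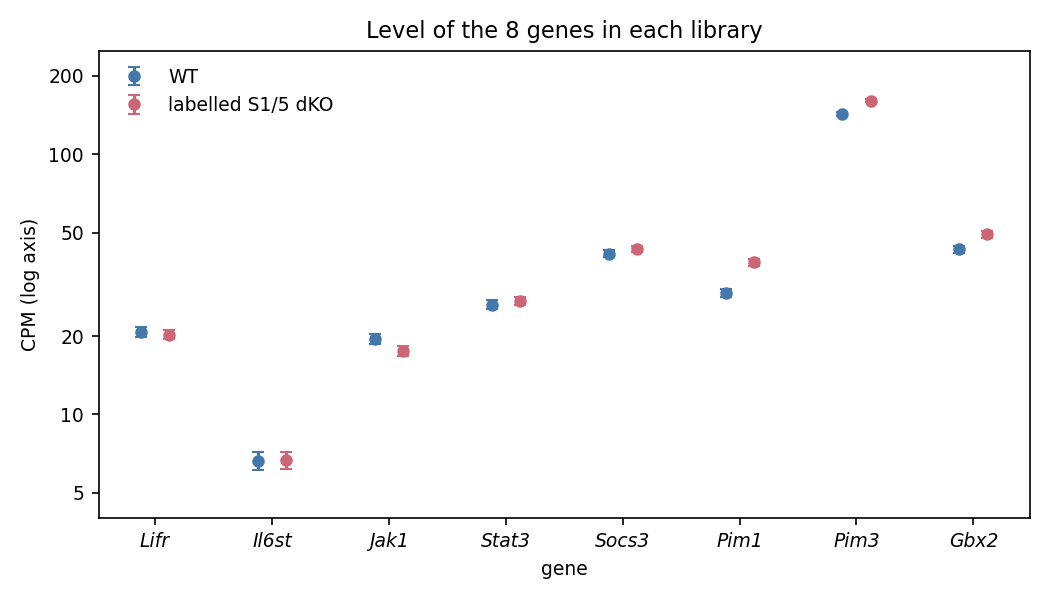
Level of each of the 8 genes in WT cells and in those labelled S1/5 dKO, in CPM. Bars are 95% Poisson intervals and cover counting error alone.

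No difference between the libraries was detectable at this depth for the receptor genes, *Stat3* or *Socs3*. On the log2 scale, the library labelled S1/5 dKO over WT gave -0.03 for *Lifr* (-0.12 to 0.06) and 0.007 for *Il6st* (-0.15 to 0.16). *Stat3*, the transcription factor of the pathway, had a ratio of 0.05 (-0.03 to 0.12), and *Socs3*, the feedback inhibitor, 0.06 (-0.004 to 0.12). *Jak1*, the kinase, was the member with the lowest ratio, -0.16 (-0.25 to -0.06). The other targets were raised in the library labelled S1/5 dKO, in which *Smad5* mRNA was also higher than in WT. On the log2 scale *Pim3* was raised by 0.17 (0.14 to 0.21), *Gbx2* by 0.19 (0.13 to 0.25) and *Pim1* by 0.39 (0.32 to 0.46), or 1.31-fold.

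Only 1 of the 8 genes, *Pim1*, was higher by at least 1.2-fold, against 9.13% of the 13654 genes. None of the 8 was at least 1.2-fold lower, against 11.4% of all genes. Among genes with at least 500 UMIs, as all 8 have, these shares were 4.68% and 5.75%. The counting interval of the ratio lay off 1 for 4 of the 8 genes (*Pim1*, *Pim3*, *Gbx2* and *Jak1*), against 40.3% of all genes, and 6 of the 8 ratios were above 1 (5 with means of cells in place of sums), against 47.9%. The median log2 ratio was 0.05 over the 8 genes and -0.007 over all genes. Of all ratios, 94.9% were below that of *Pim1*, whose value lay close to the 95th percentile (0.40). As a whole, the set stood near the background of all genes.

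The rest of the pathway was compared through a list of 47 further ligands, receptors, kinases, STAT genes, inhibitors and genes of the RAS, ERK and PI3K arm. Of these, 42 had 50 UMIs or more in all. In the library labelled S1/5 dKO 20 were higher and 22 lower, with a median log2 ratio of -0.03, and 4 were at least 1.2-fold higher (*Akt1*, *Il11*, *Il6ra*, *Socs5*) and 6 at least 1.2-fold lower (*Jak3*, *Lif*, *Stat4*, *Stat5a*, *Stat5b*, *Stat6*), against 9.13% and 11.4% of all genes. *Socs5* had a log2 ratio of 0.23 with means of cells and of -0.17 after thinning. The mRNA of the ligand LIF itself was low, with *Lif* at 1.09 CPM in WT cells and 0.89 in those labelled S1/5 dKO. *Ctf1*, which encodes another cytokine that uses the LIF receptor, stood at 4.65 and 4.55. Among receptors, *Cntfr* had 14.7 and 15.4.

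Of 7 STAT genes, *Stat3* alone had a ratio above 1, by an amount within its counting interval, apart from *Stat5b* after thinning, but the counting interval held 0 for 5 of the 7 and 52.1% of all genes were lower. The family's median log2 ratio was -0.28 (-0.27 to -0.04 under 4 other scalings). *Stat6*, with 29.4 CPM in WT, was slightly more abundant than *Stat3* there and fell to 24.3 in the library labelled S1/5 dKO, which is -0.28 in log2 (-0.35 to -0.20). *Stat4* fell from 2.95 to 2.08, though its log2 ratio was -0.04 after thinning, and *Stat5a* and *Stat5b* stayed under 0.6 in both. The direction of *Stat3* and *Stat6* was the same under every scaling tried, with log2 ratios of 0.006 to 0.08 for *Stat3* and -0.28 to -0.23 for *Stat6*, whereas *Stat5b*, with few UMIs, came to 0.30 once every cell was thinned to 10000 UMIs. Of the kinases, *Jak3* fell from 5.68 to 3.97 CPM, *Tyk2* from 9.06 to 8.22, and *Jak2*, with few UMIs, stood at 0.44 in both (a log2 ratio of 0.74 after thinning).

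Known LIF targets were compared in the same way. With *Socs3*, *Pim1*, *Pim3* and *Gbx2* counted, 15 of the 16 listed targets had at least 50 UMIs, 12 of them higher and 3 lower in the library labelled S1/5 dKO, with a median log2 ratio of 0.14, where 47.9% of all genes were higher. Under the 4 other scalings 11 to 14 were higher, with medians of 0.07 to 0.15. Without those 4 genes, 8 were higher and 3 lower, and 7 and 4 after thinning. *Klf4*, a naïve factor that STAT3 activates, rose from 128 to 145 CPM, *Junb* from 56.4 to 64.4 and *Bcl3* from 38.0 to 44.2. *Myc* stood at 34.1 and 33.7, and *Cd9* fell from 544 to 517. None of these apart from *Pim1* reached 1.2-fold. Among 14 inhibitors, *Socs3* included, 8 were higher and 6 lower, with a median of 0.04 (10 and 4, with 0.08, after thinning). *Socs2*, more abundant than *Socs3*, rose from 47.2 to 51.7, and *Ptpn2*, a phosphatase of the JAK and STAT proteins, from 41.0 to 45.9. In the plot of ratios by group, the LIF targets lie right of the median of all genes more often than left of it, and the STAT genes other than *Stat3* lie left of it.

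**Figure D2:**
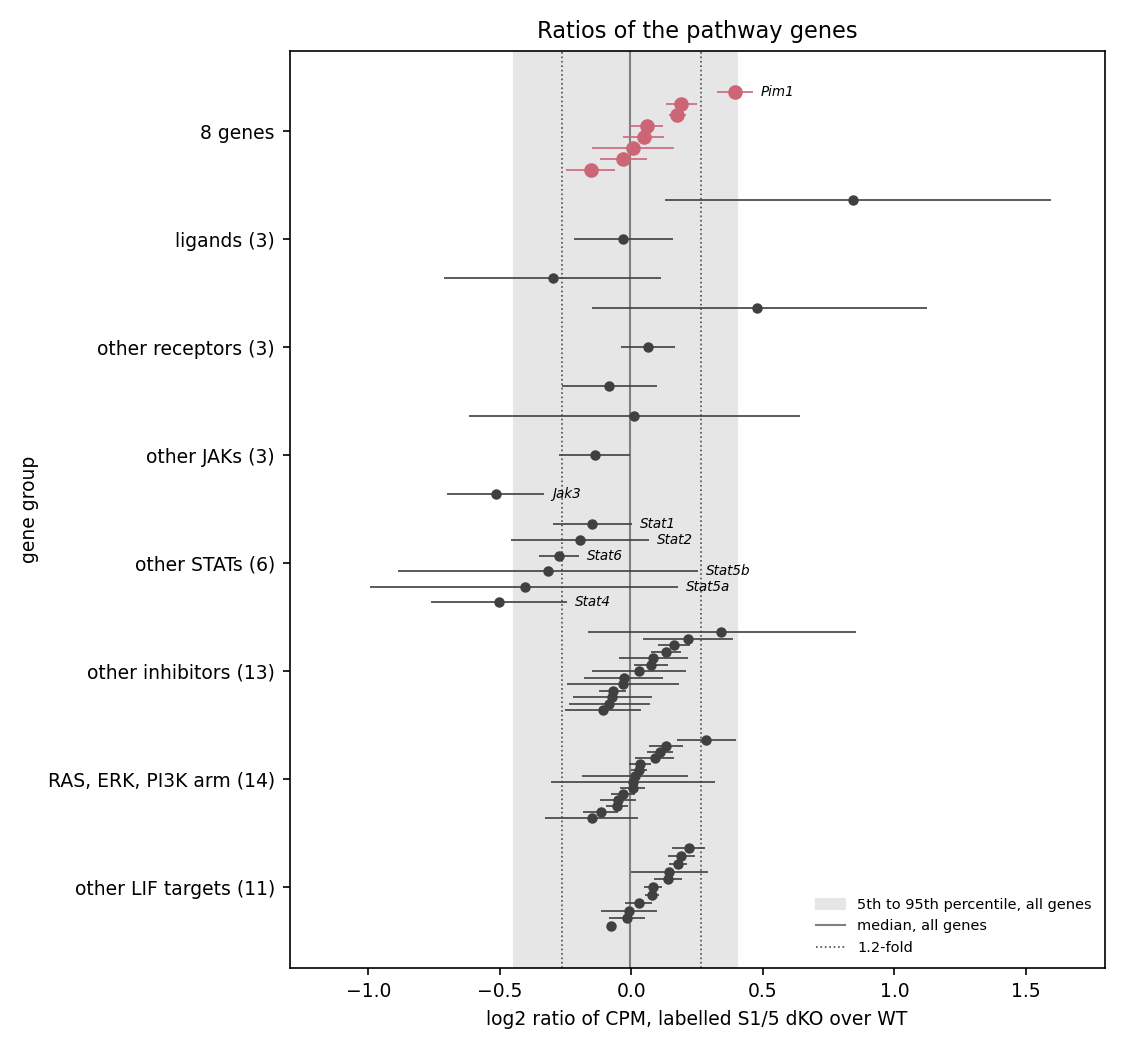
Log2 ratio of the library labelled S1/5 dKO over WT for the 8 genes and for the other listed pathway genes and LIF targets with at least 50 UMIs, by role. Bars are 95% intervals for counting error; several STAT genes have few UMIs, and the ratio of *Stat5b* changed sign after thinning.

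The members differed in how many cells showed them. A UMI of *Pim3* was found in 96.3% of WT cells and in 95.6% of those labelled S1/5 dKO, one of *Socs3* in 72.0% and 69.2%, and one of *Gbx2* in 66.1% and 68.0%. For *Stat3* the shares were 60.7% and 57.7%, for *Lifr* 53.0% and 48.7%, for *Jak1* 53.2% and 44.6%, and for *Il6st* 23.5% and 21.3%. These shares follow depth, which was lower in the library labelled S1/5 dKO. After each cell was thinned at random to 10000 UMIs, leaving 2193 and 2843 cells, the shares were 18.6% and 18.0% for *Lifr*, 16.9% and 15.5% for *Jak1*, 22.1% and 23.5% for *Stat3* and 32.2% and 32.9% for *Socs3*. *Pim1* was found in 23.7% (21.9 to 25.5) of thinned WT cells and 28.5% (26.8 to 30.2) of thinned cells labelled S1/5 dKO.

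No cell type without these transcripts is present to show how many UMIs come from free RNA, so barcodes of 10 to 100 UMIs were read instead. In them *Pim3* had 135 CPM for WT and 146 for the library labelled S1/5 dKO, near its level in cells, and *Pim1* had 16.4 and 23.5, less than in cells. Per barcode, *Pim1* in these barcodes came to 0.032% and 0.044% of its mean count in a cell.

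Spread from cell to cell was read in thinned cells as the variance over the mean, which is 1 for pure counting and grows with the level, so it does not rank genes of different level. It was 1.07 in WT cells and 1.10 in those labelled S1/5 dKO for *Lifr*, 1.05 and 1.03 for *Il6st*, 1.02 and 1.07 for *Jak1* and 1.08 and 1.03 for *Stat3*, and 1.25 and 1.18 for *Socs3*, 1.22 and 1.27 for *Gbx2* and 1.31 and 1.37 for *Pim3*. *Pim1* had 1.33 and 1.49, and reached 24 and 28 UMIs in single cells before thinning. Thinned cells with at least 3 *Pim1* UMIs made up 1.23% of WT cells and 2.67% of those labelled S1/5 dKO.

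Covariation was read across the thinned cells of each library as Pearson r of log(1 + UMIs), with 2193 WT cells and 2843 cells labelled S1/5 dKO as points. These cells share their library and, after thinning, their depth. A naïve score was taken as the mean z-score of 16 listed genes, called naïve factors here, none of them among the 8 genes. They were *Pou5f1*, *Sox2*, *Nanog*, *Esrrb*, *Klf2*, *Klf4*, *Klf5*, *Tfcp2l1*, *Tbx3*, *Zfp42*, *Prdm14*, *Nr0b1*, *Dppa3*, *Tcl1*, *Sall4* and *Fgf4*. The list is not limited to the naïve state, as the paper uses *Pou5f1* to mark pluripotent cells in general. *Klf4*, *Klf5* and *Tfcp2l1* are also among the listed LIF targets. With the naïve score, r was 0.078 in WT cells and 0.020 in those labelled S1/5 dKO for *Lifr*, 0.038 and 0.053 for *Stat3*, 0.039 and 0.067 for *Gbx2* and 0.020 and 0.070 for *Pim3*. *Il6st* had -0.012 and 0.052, *Jak1* 0.008 and 0.030, and *Socs3* 0.012 and 0.027. *Pim1* was the only member below 0 in both, at -0.019 and -0.091. All of these values were under 0.1 in size, and another random draw of UMIs moved *Lifr* to 0.048, *Pim3* to 0.064 and *Gbx2* to 0.097 in WT. In the library labelled S1/5 dKO it moved *Gbx2* to 0.021, *Pim3* to 0.033 and *Il6st* to 0.013.

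Single naïve factors gave a more detailed picture, shown as a heatmap. Among *Socs3*, *Pim3* and *Gbx2*, r was 0.081 and 0.072 for *Socs3* and *Pim3*, 0.070 and 0.074 for *Socs3* and *Gbx2*, and 0.075 and 0.081 for *Pim3* and *Gbx2*. With another random draw, chosen after seeing the data, these were 0.067 and 0.067, 0.013 and 0.033, and 0.056 and 0.045, so the pair of *Socs3* and *Gbx2* depends on the draw. Some pairs with Krüppel-like factors were above 0 in both libraries: *Socs3* with *Klf4* at 0.059 and 0.071, *Pim3* with *Klf4* at 0.069 and 0.061, and *Gbx2* with *Klf5* at 0.116 and 0.080. *Gbx2* with *Klf5* came to 0.079 and 0.044 with the other draw, and to 0.038 and 0.0045 thinned to 5000 UMIs. The pairs with *Klf4* came to 0.069 to 0.102 and to 0.020 to 0.022 in these settings. Pairs with *Klf2* were not above 0 in both, as r was -0.0040 and 0.010 for *Socs3*, -0.017 and 0.025 for *Pim3* and -0.024 and 0.022 for *Gbx2*. *Pim1* had r of -0.068 and -0.073 against *Klf4* and -0.088 and -0.117 against *Zfp42*, a marker of the naïve state. Against *Tbx3*, another LIF-responsive naïve factor, *Pim1* had r of -0.006 in WT cells and -0.115 in those labelled S1/5 dKO. Over all 16 naïve factors, r of *Pim1* was above 0 with 9 in WT and with 4 in cells labelled S1/5 dKO. The heatmap holds a warm block of *Socs3*, *Pim3* and *Gbx2* at its right edge in both libraries, as drawn here.

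**Figure D3:**
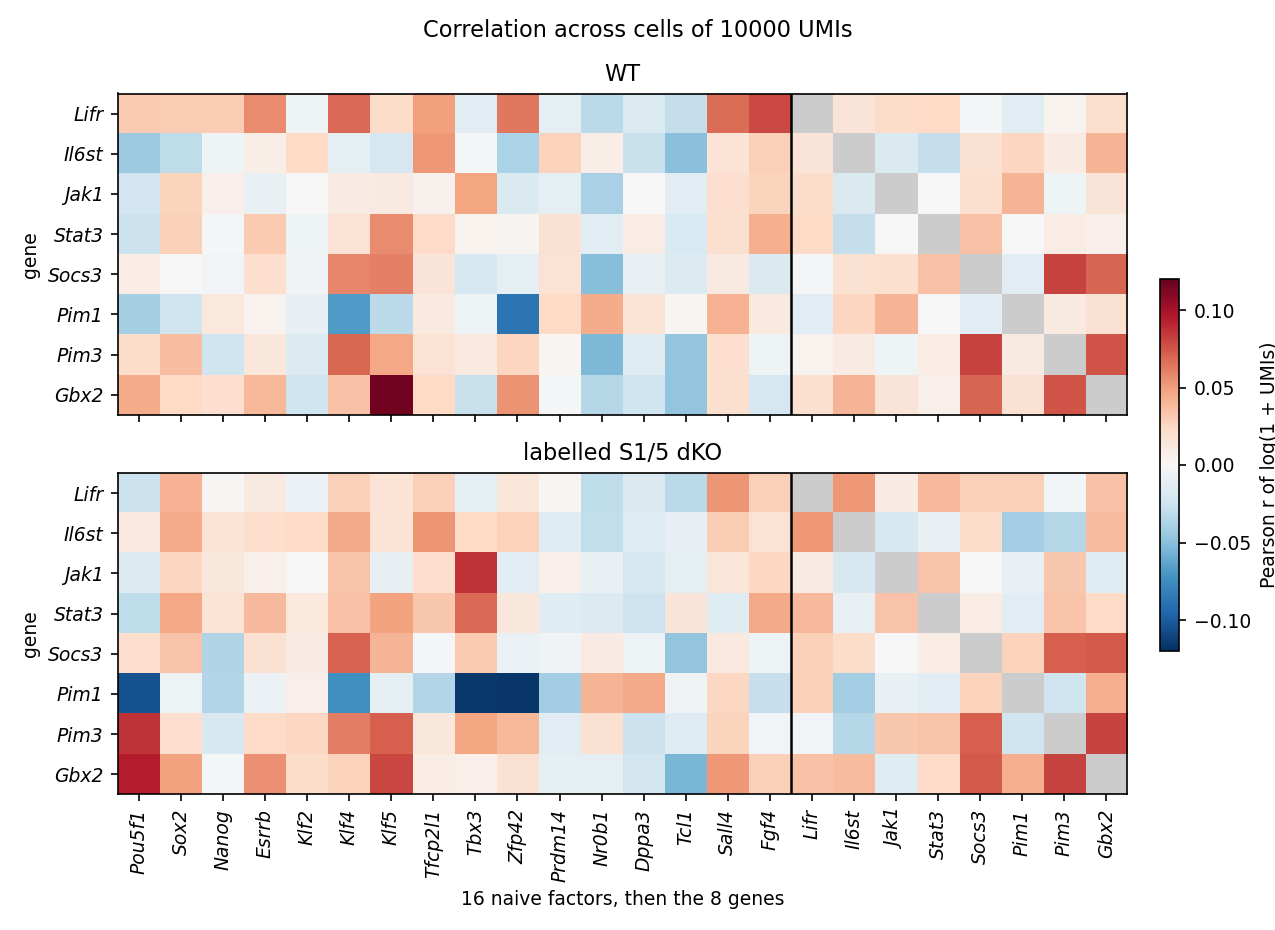
Pearson r across cells thinned to 10000 UMIs between each of the 8 genes and 16 naïve factors and the other members, in 2193 WT cells (top) and 2843 cells labelled S1/5 dKO (bottom). Gray cells are a gene with itself.

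The genes most alike each member were taken as the 3 with the highest r in both libraries, reading the lower of both values. For *Socs3* they were *Junb*, listed both as a LIF target and as an immediate early gene (0.113 and 0.110), *Meg3* (0.094 and 0.077) and *Pim3*. For *Gbx2* they were *Tcf15* (0.159 and 0.171), *Tmsb4x* (0.117 and 0.106) and *Nkx6-2* (0.135 and 0.097), and for *Pim3* they were *Tcf15* (0.090 and 0.092), *Tdgf1* (0.084 and 0.090) and *Gbx2*. *Gbx2* and *Pim3* thus shared their leading partner, a transcription factor gene of early epiblast. For *Pim1* they were *Tpm1* (0.114 and 0.143), *Fgfbp1* (0.101 and 0.159) and *S100a6* (0.095 and 0.137), none of them a naïve factor. *Lifr* went with *Rif1* (0.094 and 0.095), *Cdv3* and *Enah*, *Il6st* with *Pip5k1a*, *Rad21* and *Pura*, *Jak1* with *Huwe1*, *Vps13a* and *Ap2a2*, and *Stat3* with *Hnrnpa3* and *Pabpc1*. The values for the receptor, kinase and *Stat3* transcripts are weak, though those of *Lifr* with *Rif1* are as large as those of *Pim3* with *Tcf15*. No finding is drawn from the values for these transcripts.

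To put these values on the scale of levels, cells were split by the UMIs of a member after thinning, and the other genes were summed over all UMIs of the cells, a comparison chosen after the correlations were seen. The 180 WT cells with at least 2 *Socs3* UMIs had *Junb* at 89.9 CPM, and the 1486 cells with 0 had it at 51.1, a log2 ratio of 0.82 (0.69 to 0.94). Labelled S1/5 dKO, the 244 and 1908 such cells had it at 90.3 and 57.6, a log2 ratio of 0.65 (0.54 to 0.76). The same *Socs3*-rich cells had *Pim3* at 167 CPM in WT, against 136, and at 193 against 152 in the library labelled S1/5 dKO. For *Gbx2* the values were 52.7 against 40.4 and 59.6 against 46.9. Only 3.33% and 2.77% of 6246 genes were at least 1.2-fold higher in *Socs3*-rich cells, and *Junb*, *Pim3* and *Gbx2* were among them in both libraries, *Jak1* (1.27-fold) and *Stat3* (1.26-fold) in WT, and *Pim1* (1.23-fold) and *Lifr* (1.21-fold) in cells labelled S1/5 dKO. *Junb*, *Pim3* and *Gbx2* were picked by their r with *Socs3* in the same cells, so these levels restate r and are no second finding.

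*Gbx2*-rich cells, 176 from WT and 297 labelled S1/5 dKO, had *Tcf15* at 671 CPM against 502 in WT cells with 0 *Gbx2* UMIs, and 766 against 578 in the library labelled S1/5 dKO. *Klf5* stood at 180 against 131 and at 166 against 140. At least 1.2-fold higher in *Gbx2*-rich cells were 4.35% of genes in WT cells and 4.87% in those labelled S1/5 dKO, *Tcf15* among them in both, which restates the r it was picked by, whereas *Klf5* was past 1.2-fold in WT only. Of the other members, *Pim1* passed it in both (1.21- and 1.35-fold), *Socs3* in WT (1.23-fold), and *Lifr* (1.28-fold) and *Il6st* (1.32-fold) in cells labelled S1/5 dKO. Cells with at least 3 *Pim3* UMIs had *Tcf15* 1.16- and 1.18-fold above those with 0, at the 98.1st and 98.8th percentiles of 6246 genes. At least 1.2-fold higher in such cells were 0.801% and 0.768% of genes. Among members, *Socs3* (1.39- and 1.30-fold) and *Gbx2* (1.28- and 1.28-fold) passed it in both, which restates their r with *Pim3*. *Stat3* passed it in cells labelled S1/5 dKO (1.22-fold).

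*Pim1*-rich cells were read in the same way. The 123 WT cells with at least 2 *Pim1* UMIs had *S100a6* at 129 CPM against 56.6 in the 1673 cells with 0, and the 224 cells labelled S1/5 dKO had it at 209 against 78.0 in 2034. *Fgfbp1* stood at 49.7 against 21.8 and at 72.0 against 21.7, and *Tpm1* at 133 against 79.9 and at 124 against 70.0. Naïve factors went both ways. *Klf4* was lower in *Pim1*-rich cells, at 104 against 131 in WT and 124 against 151 in the library labelled S1/5 dKO, and *Zfp42* at 771 against 857 and 775 against 898. *Nr0b1* was higher in them, by log2 ratios of 0.18 (WT) and 0.23 (labelled S1/5 dKO), and *Dppa3*, with few UMIs, by 0.82 in both. *Tbx3* stood at 51.9 against 62.2 in WT and at 43.7 against 77.2 in the library labelled S1/5 dKO. *Junb* was raised in *Pim1*-rich cells as well, at 92.2 against 52.6 and 82.7 against 62.6, whereas *Socs3* differed less, at 43.5 against 40.9 and 48.5 against 42.5. Of 6246 genes, 7.28% in WT cells and 8.17% in those labelled S1/5 dKO were at least 1.2-fold higher in *Pim1*-rich cells, *S100a6*, *Fgfbp1* and *Tpm1* among them in both, which restates the r they were picked by. At least 1.2-fold lower were 3.92% and 5.32%, *Klf4* among them in both, *Tbx3*, *Fgf4* and *Tfcp2l1* among those of the library labelled S1/5 dKO, and *Lifr* in WT. *Lifr* had a ratio of 0.77-fold there, but 1.19-fold in cells labelled S1/5 dKO, and *Stat3* was 1.24-fold higher in WT.

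Cells of each library were next ordered by the naïve score and divided into 5 equal parts, each of 438 or 439 WT cells or 568 or 569 cells labelled S1/5 dKO. With thinned UMIs, 6 of the 8 genes were higher in the top part than in the bottom part in WT, where 61.4% of 6246 genes were, and 7 of the 8 in the library labelled S1/5 dKO, where 60.4% were. Past 1.2-fold higher were *Lifr* and *Stat3* in WT, against 22.1% of all genes, and *Il6st*, *Stat3* and *Gbx2* in the library labelled S1/5 dKO, against 25.5%. The log2 ratio of *Gbx2* there was 0.47, and under 1.2-fold with 5 factors as the score (0.18), thinned to 5000 UMIs (0.12) or with all UMIs (0.24). That of *Stat3* in the library labelled S1/5 dKO was under 1.2-fold with summed UMIs of the naïve factors as the score (0.24). Past 1.2-fold lower was no member in WT, against 7.19%, and *Pim1* in the library labelled S1/5 dKO, against 7.64%. The count in WT depends on the setting. With summed UMIs of the naïve factors as the score, *Pim1* (log2 -0.45) and *Il6st* (-0.54) were past it in WT. Thinned to 5000 UMIs they were too (-0.50 and -0.70), and with 3 parts in place of 5 neither was (-0.15 and 0.09). The thinned log2 ratio of top over bottom was 0.71 (0.29 to 1.14) in WT and 0.17 (-0.21 to 0.55) in the library labelled S1/5 dKO for *Lifr*, 0.30 (-0.08 to 0.68) and 0.51 (0.17 to 0.86) for *Stat3*, and -0.24 (-0.58 to 0.09) and -0.59 (-0.85 to -0.34) for *Pim1*.

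With all UMIs of the same cells, added to narrow the intervals, *Stat3* rose from 22.6 CPM in the bottom part to 30.3 in the top part in WT and from 21.7 to 31.9 in the library labelled S1/5 dKO, and climbed at each step in both. *Lifr* rose from 17.0 to 25.1 in WT, a log2 ratio of 0.56 (0.35 to 0.77), and from 18.0 to 22.2 in the library labelled S1/5 dKO, 0.30 (0.10 to 0.50). With summed UMIs of the naïve factors as the score, the thinned log2 ratio of *Stat3* in WT was 0.04 in place of 0.30, and that of *Lifr* in the library labelled S1/5 dKO -0.009 in place of 0.17, so these slopes depend on the score. *Pim1* fell from 35.5 to 27.7 in WT, a log2 ratio of -0.36 (-0.53 to -0.19), and from 54.1 to 34.3 in the library labelled S1/5 dKO, -0.65 (-0.79 to -0.52). Only 1.91% and 0.656% of genes had a lower ratio.

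The remaining members were read in the same way. *Gbx2* rose from 38.9 to 45.9 in WT and from 46.5 to 54.8 in the library labelled S1/5 dKO, by ratios at the 79.0th and 74.8th percentiles of all genes. *Pim3* went from 138 to 150.04 and from 152 to 164 (60.9th and 57.5th), and *Socs3* from 39.5 to 42.5 and from 40.4 to 45.1 (58.8th and 65.1st), with an interval in WT of -0.04 to 0.25. *Il6st* stood at 6.33 and 6.47 in WT with all UMIs, whereas its thinned log2 ratio there was -0.20 (-1.02 to 0.60). In the library labelled S1/5 dKO *Il6st* rose from 5.73 to 7.96, by a log2 ratio of 0.47 (0.13 to 0.83). *Jak1* rose from 19.4 to 22.2 in WT, 0.20 (-0.009 to 0.41), and from 15.3 to 19.5 in cells labelled S1/5 dKO, 0.34 (0.13 to 0.56). Over all genes the median was a log2 ratio of 0.06 in both, and the median depth before thinning rose from 36402 to 40970 UMIs per cell in WT and from 32391 to 37579.5 in the library labelled S1/5 dKO. Mitotic genes, 10 in all, rose as well, from 2342 to 2686 CPM in WT and from 2463 to 2872 in cells labelled S1/5 dKO. With residuals after depth, mitotic and G1/S scores, r with the naïve score stayed within 0.03 of its value for every member in both libraries, and *Pim1* had -0.019 and -0.096. The levels by part were not fitted in this way.

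The panels by part of the score show the same: *Stat3* climbs in both libraries on overlapping lines, *Pim3* and *Gbx2* lie higher in every part for the library labelled S1/5 dKO, and *Pim1* falls, with the libraries farthest apart at the naïve-poor end. There the log2 ratio of *Pim1* between the libraries was 0.61 (0.46 to 0.75), and in the next parts 0.36 (0.21 to 0.52), 0.49 (0.32 to 0.65), 0.15 (-0.006 to 0.32) and, at the naïve-rich end, 0.31 (0.15 to 0.47).

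**Figure D4:**
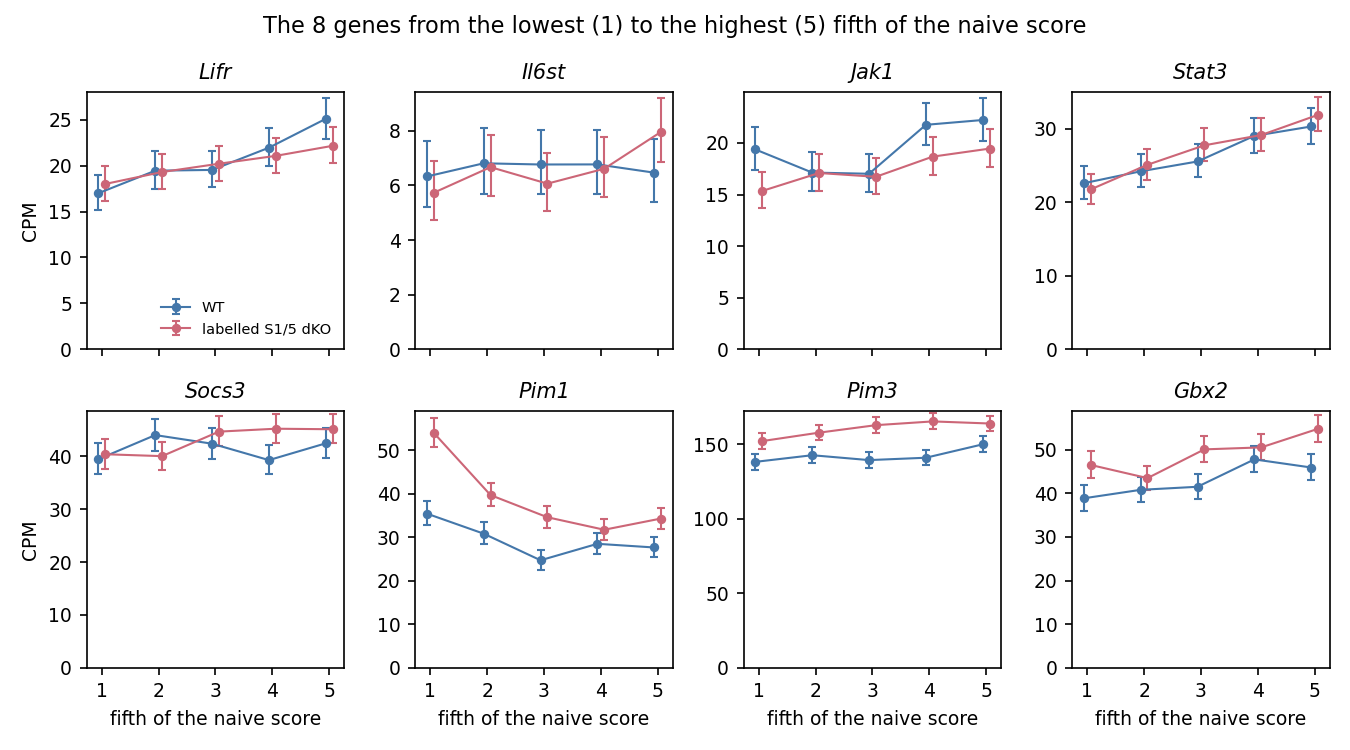
CPM of the 8 genes from the lowest (1) to the highest (5) part of the naïve score in each library, with all UMIs of the cells and 95% Poisson intervals. The score holds none of the 8 genes, and the vertical scale differs between panels.

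*Fgfbp1*, a leading partner of *Pim1*, and *Sp5* mark a minority of cells, and the *Pim1* values were therefore read apart in them, a comparison chosen after the values were seen. Cells with at least 2 UMIs of *Sp5* and *Fgfbp1* together after thinning made up 143 of 2193 WT cells (6.52%, 5.52 to 7.64) and 266 of 2843 cells labelled S1/5 dKO (9.36%, 8.31 to 10.5), and *Pim1* rose in them from 26.5 to 53.7 CPM in WT and from 31.1 to 86.9 in the library labelled S1/5 dKO, relative to the 1776 and 2203 cells with 0. The ratio of *Pim1* between the libraries was 1.17-fold in cells without such UMIs (log2 0.23, 0.15 to 0.31) and 1.62-fold in cells with them (log2 0.69, 0.50 to 0.89). At least 1.2-fold higher in such cells were 9.51% of genes in WT cells and 10.4% in those labelled S1/5 dKO, and *Pim1* was past that fold in both and *Socs3* and *Jak1* in 1 library each. In the cells with 0 such UMIs the log2 ratio between the libraries was 0.19 for *Pim3* and 0.19 for *Gbx2*, and the median of all genes was 0.003. *Jak1* had a log2 ratio of -0.61 (-0.96 to -0.26) between the libraries in cells with them, where the median of all genes was 0.009. No share of all genes past 1.2-fold is given for these ratios between the libraries. The plot shows this contrast for the 8 genes. *Fgfbp1* was chosen for its r with *Pim1*, so the rise of *Pim1* in such cells restates that choice. That r was larger in the library labelled S1/5 dKO (0.159) than in WT (0.101). The ratios of *Pim1* between the libraries with and without such UMIs are therefore no separate finding.

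**Figure D5:**
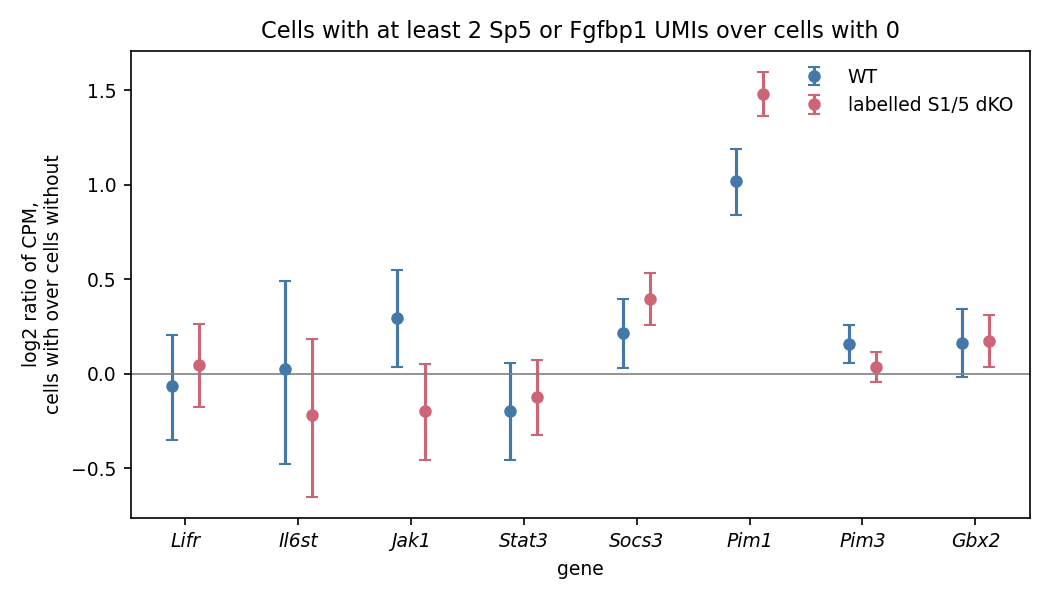
Log2 ratio of each of the 8 genes in cells with at least 2 *Sp5* or *Fgfbp1* UMIs over cells with 0, in WT cells and in those labelled S1/5 dKO. Bars are 95% intervals for counting error, and cells were sorted on thinned UMIs and summed over all of theirs.

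In cells without *Nanog*, read as 0 UMIs after thinning (701 WT cells and 946 cells labelled S1/5 dKO), *Lifr* stood at 19.3 CPM in WT against 25.4 in the 390 cells with at least 3 *Nanog* UMIs, and at 20.8 against 20.1 in the library labelled S1/5 dKO, with 523 such cells. *Pim1* stood at 30.4 against 29.7 in WT and at 44.9 against 35.8 in the library labelled S1/5 dKO, which is -0.33 in log2 (-0.59 to -0.08). For each of the other members the interval held 0 in both libraries. In log2, WT and then labelled S1/5 dKO, *Stat3* had 0.03 and 0.17, *Socs3* -0.01 and -0.24 and *Pim3* -0.09 and -0.12. *Gbx2* had 0.02 and -0.09, *Jak1* 0.04 and 0.19 and *Il6st* -0.68 and 0.26. No share of all genes is given for this split.

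The 8 genes are spread over the genome (GRCm38): *Lifr* (ENSMUSG00000054263, chr15:7090614-7197489) and *Pim3* (ENSMUSG00000035828, chr15:88862186-88865726), *Il6st* (ENSMUSG00000021756, chr13:112464070-112510086), *Jak1* (ENSMUSG00000028530, chr4:101152367-101265282), *Stat3* (ENSMUSG00000004040, chr11:100885098-100939540) and *Socs3* (ENSMUSG00000053113, chr11:117966079-117970047), *Pim1* (ENSMUSG00000024014, chr17:29490753-29496112) and *Gbx2* (ENSMUSG00000034486, chr1:89927956-89931179). *Jak1* overlaps *Gm12785* on its own strand, and UMIs where they overlap cannot be told apart by position.

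Promoters were searched for the letters of the STAT motif, TTCNNNGAA, and of a GC-rich SMAD1/5 motif, GGCGCC, each of which reads the same on both strands. RefSeq (GRCm38.p6) gave promoters of 300 bases, from 250 before to 50 after the start, for all 8 genes, with 10 entries in all. TTCNNNGAA is held by 8.30% of all 32851 promoters of this length and by 1 of the 10 entries, that of *Socs3*, starting 154 bases before the RefSeq start. The stricter form TTCCNGGAA is held by 1.15% of all promoters and by none of the 10. GGCGCC is held by 11.9% of all promoters and by 4 of the 10 entries, those of *Socs3* (61 bases before the start), *Gbx2*, *Jak1* and the first of *Lifr*. RefSeq starts can differ from the gene positions above: the windows of *Socs3* and *Lifr* and the second of *Pim1* lie inside the bounds given there. For *Socs3* and *Lifr*, the bases before the starts given there were therefore not searched, and a missing match does not speak of them. The promoters of *Socs3* (chr11:117969317-117969616, minus strand), *Pim3* (chr15:88861944-88862243, plus strand) and *Gbx2* (chr1:89931127-89931426, minus strand), and of *Pim1* (chr17:29490535-29490834, plus strand, the first of 2 entries), the member with the highest ratio, are shown with matches to either motif in capitals. A match describes these letters only, and binding was not measured here.
Socs3: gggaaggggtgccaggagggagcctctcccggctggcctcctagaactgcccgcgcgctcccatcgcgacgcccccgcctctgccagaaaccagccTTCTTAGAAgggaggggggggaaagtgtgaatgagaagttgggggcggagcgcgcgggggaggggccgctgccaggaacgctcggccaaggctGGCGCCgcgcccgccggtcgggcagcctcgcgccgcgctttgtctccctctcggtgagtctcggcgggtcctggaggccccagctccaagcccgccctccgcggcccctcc
Pim3: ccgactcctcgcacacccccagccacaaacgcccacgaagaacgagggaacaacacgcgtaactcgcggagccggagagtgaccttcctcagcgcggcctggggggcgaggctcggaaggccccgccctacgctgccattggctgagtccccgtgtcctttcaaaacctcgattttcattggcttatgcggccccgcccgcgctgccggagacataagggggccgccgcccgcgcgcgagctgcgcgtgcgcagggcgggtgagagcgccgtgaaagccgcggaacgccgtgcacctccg
Gbx2: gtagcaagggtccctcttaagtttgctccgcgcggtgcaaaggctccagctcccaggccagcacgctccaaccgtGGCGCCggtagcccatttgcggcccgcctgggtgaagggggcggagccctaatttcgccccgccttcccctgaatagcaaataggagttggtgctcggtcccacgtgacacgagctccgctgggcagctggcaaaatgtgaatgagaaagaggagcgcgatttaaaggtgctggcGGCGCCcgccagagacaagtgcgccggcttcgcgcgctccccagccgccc
Pim1: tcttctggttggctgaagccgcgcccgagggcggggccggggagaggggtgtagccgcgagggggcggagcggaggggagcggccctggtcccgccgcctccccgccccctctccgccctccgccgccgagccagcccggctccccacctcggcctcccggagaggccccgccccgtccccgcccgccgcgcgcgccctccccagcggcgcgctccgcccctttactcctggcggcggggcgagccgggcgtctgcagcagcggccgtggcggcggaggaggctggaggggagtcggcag
*Socs3* holds both motifs, *Gbx2* holds GGCGCC only, and *Pim3* and *Pim1* hold neither within this window.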

How the data were processed

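Single-cell RNA-seq of 2 libraries was used, 1 per genotype. The authors counted UMIs with Cell Ranger 3.0.2 against mm10, and the deposited matrices hold unnormalized counts for every barcode of the kit. Depth over the kept cells was 95965242 UMIs in WT cells and 109020533 in those labelled S1/5 dKO, so a gene with 635 UMIs, as *Il6st* in WT, carried a 95% interval of 6.11 to 7.15 CPM.

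UMIs were summed per library and divided by its total, with exact Poisson intervals for levels and exact binomial intervals for ratios. Covariation used cells thinned to 10000 UMIs, which left out 43 WT cells and 67 cells labelled S1/5 dKO. The 6246 background genes, also searched for the most alike genes, had a mean of at least 0.1 UMI in both libraries. Members and naïve factors were read whatever their mean. *Il6st*, *Prdm14* and *Dppa3* had means under 0.1 in both libraries and so are not among the 6246. Python 3.11.15 with numpy 2.4.6, scipy 1.17.1, pandas 2.3.3 and matplotlib 3.10.9 was used, and edgeR 4.0.16 on R 4.3.3 for TMM factors. Gene positions are from GENCODE. The code was tested on simulated data.

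The genes and lists were chosen with earlier results of these data known. Genes named are the targeted genes, the 8 genes, listed pathway, naïve and marker genes, and for each of the 8 the 3 with the highest r, of which 1 is not reported here. *Sp5* and the comparisons it is used in were chosen after values were seen. Alternatives changed the cell filters, doublets, scaling, summing, thinning, random draw, correlation measure, residuals on depth and cell cycle, naïve score and number of parts.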

Additional observations from a re-analysis of the deposited data

Results flagged for a closer look

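The BMP targets *Id1*, *Id2* and *Id3* were compared beside the 8 genes along the naïve score as a sum, not singly. Their sum ran in opposite directions in the libraries. With all UMIs of the cells, their summed level fell from 526 CPM in the naïve-poor part of cells to 430 in the naïve-rich part in WT, a log2 ratio of -0.29 (95% counting interval -0.33 to -0.25). The library labelled S1/5 dKO showed a rise from 188 to 272, which is 0.53 in log2 (0.48 to 0.59). Of 6246 single genes, 3.68% were at least 1.2-fold lower in the naïve-rich part in WT. In the library labelled S1/5 dKO, 22.2% were at least 1.2-fold higher there. The difference between the libraries was not tested, since each has 1 sample. *Smad5* mRNA was higher in the second than in WT, and UMIs from the 3′ end cannot show a deletion elsewhere in the gene. None of the 8 genes showed intervals on opposite sides of 0 in this comparison.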

How the results depend on the processing

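No paired analysis was possible because each condition has 1 library, and no test was made. Of 80 values of the log2 ratios under the alternatives, 79 stayed within the interval of the value reported. The exception was *Pim1*, at 0.23 in place of 0.39 with only cells without *Sp5* and *Fgfbp1* UMIs, an alternative chosen after seeing the data, under which 0 in place of 1 member was at least 1.2-fold higher. Ranges over the alternatives were -0.16 to -0.11 for *Jak1*, 0.15 to 0.19 for *Pim3* and 0.19 to 0.24 for *Gbx2*, and TMM factors moved all ratios by 0.0095. With at least 500 UMIs per gene, 4.68% of genes were at least 1.2-fold higher and 5.75% lower. Correlations were less stable: 54 of 80 stayed within 0.03, 25 moved further, and r of *Pim1* with the naïve score in the library labelled S1/5 dKO reversed to 0.172 without thinning, where cells differ in depth, and in WT went from -0.019 to 0.206. Of 56 values of r for single pairs, under another draw or thinned to 5000 UMIs, alternatives chosen after seeing the data, 26 stayed within 0.03, and *Socs3* with *Gbx2* in WT reversed to -0.014. Thinned to 5000 UMIs, 3 in place of 6 members were higher in the top part of the score in WT, with fewer UMIs to count. Of 96 ratios along the score, 92 stayed within their interval. Depth limits *Il6st* most, for which a log2 ratio under 0.16 in size was not detectable.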
